A study of Sus scrofa with 70 samples.

Results

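The trefoil factors TFF1, TFF2 and TFF3 and the anterior gradient genes AGR2 and AGR3 were followed through the male reproductive tract of the pig. They are 5 genes, chosen by name, and their transcript values were summed by the gene name of the deposited annotation. Of the 5, 4 have a transcript in that annotation, and 3 (TFF2, TFF3 and AGR2) are among the 35568 genes with a value in the RNA-seq table and the 19822 genes tested.

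The samples came from 12-month-old adult boars of 2 breeds, BMI (the Banna mini-pig inbred line, derived from the other breed) and DSE (Diannan small-ear pigs). No animal carried a treatment or a transgene. The bulbourethral, prostate and vesicular glands, the epididymis and the testis were each sequenced by Illumina RNA-seq in 3 libraries per breed, 30 libraries in all, and by PacBio Iso-seq, which reads whole transcripts, in 1 library per breed and gland, 10 in all. BMI is an inbred line, so its boars carry little genetic variation among themselves, and the sources used here do not state whether libraries of the same number came from 1 boar. The values are TPM (transcripts per 1000000 transcripts), which sum to the same total in every library and keep no read depth.

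Trefoil factors are small secreted proteins, held together by disulfide bonds, that are released with mucins by mucous epithelia such as those of the stomach and intestine. TFF1 and TFF2 are best known from the stomach, and TFF3 from intestinal goblet cells. AGR2 is a member of the protein disulfide isomerase family that works in the endoplasmic reticulum of mucus-producing cells and is required for mucin assembly in the mouse intestine, and AGR3 is its close relative. In the boar, the bulbourethral gland secretes the gel fraction of the ejaculate, while the vesicular and prostate glands supply most of the fluid.

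In this assembly (Sscrofa11.1) the trefoil genes lie next to each other on the minus strand, with TFF3 at chr13:205641038-205644334, TFF2 at chr13:205669014-205672324 and TFF1 at chr13:205687560-205691460. AGR2 (ENSSSCG00000015363) lies on the minus strand at chr9:86039837-86053857. AGR3 has a RefSeq gene at chr9:86099970-86135401, but 0 transcripts of the deposited annotation overlap it, so AGR3 is not analysed here. TFF1 (ENSSSCG00000034731) has 1 Ensembl transcript in the annotation but no row in the RNA-seq table, which holds only transcripts above 0 TPM in at least 1 library, and its Iso-seq count is 0 reads in all 10 libraries. These libraries held between 231413 and 458697 full-length reads, so 0 reads allow up to 6.54 to 13.0 RPM (reads per 1000000 full-length reads of the library).

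The 250 bases before the annotated starts of the 3 measured genes are shown because these genes share their highest gland. All 3 are on the minus strand, at chr13:205672325-205672574 for TFF2, chr13:205644334-205644583 for TFF3 and chr9:86053858-86054107 for AGR2, and capitals mark the only matches to any of the 4 motifs searched.
TFF2: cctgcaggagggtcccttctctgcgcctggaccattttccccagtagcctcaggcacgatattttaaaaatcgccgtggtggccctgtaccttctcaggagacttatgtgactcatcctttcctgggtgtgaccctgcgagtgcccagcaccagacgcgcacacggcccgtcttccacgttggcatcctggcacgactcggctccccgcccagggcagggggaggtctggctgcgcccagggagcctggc
TFF3: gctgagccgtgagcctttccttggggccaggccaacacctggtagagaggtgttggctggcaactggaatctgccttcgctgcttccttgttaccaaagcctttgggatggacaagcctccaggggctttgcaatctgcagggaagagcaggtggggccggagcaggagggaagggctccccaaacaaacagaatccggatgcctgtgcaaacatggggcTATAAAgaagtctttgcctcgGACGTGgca
AGR2: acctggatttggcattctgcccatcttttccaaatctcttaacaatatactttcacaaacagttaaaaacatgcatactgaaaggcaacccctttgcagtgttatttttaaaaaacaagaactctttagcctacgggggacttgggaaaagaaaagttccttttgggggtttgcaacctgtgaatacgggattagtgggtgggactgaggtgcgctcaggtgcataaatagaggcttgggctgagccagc
The motifs were searched on both strands, and none overlaps another. They were TATAAA, the core of a TATA box, held by 13.0% of 34568 promoters of the same length, CCAAT (32.1%), TGTTTAC, a forkhead core (2.5%), and GACGTG, a core bound by bZIP factors of the unfolded protein response (6.1%). TFF3 held TATAAA at 30 to 25 bases and GACGTG at 9 to 4 bases before its start, and TFF2 and AGR2 held none of the 4 in these windows. GC content was 63.2% for TFF2, 57.6% for TFF3 and 43.6% for AGR2.

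Marker genes were checked in each gland before the members were compared. Spermatid genes summed to 23966 TPM or more in every testis library and to at most 6.94 TPM in the 3 accessory glands. Vesicular secretory genes summed to at least 293950 TPM in vesicular gland libraries. The library labelled BMI prostate gland replicate 2 also held 233400 TPM of the vesicular secretory genes, against 1.72 to 15.2 TPM in the other 5 prostate libraries. It also held 88607 TPM of MSMB, a prostate secretory protein, which was at 88607 TPM or more in the 6 prostate libraries and at most 103.6 TPM in the other glands. Because of the vesicular transcripts, the tests of the members and the list counts against prostate gland are given with and without it. Epididymal duct genes varied from 1167 to 33796 TPM between epididymis libraries, where urothelial genes (UPK2, UPK3A and UPK1B) reached 1425 TPM. Epithelial genes (EPCAM, KRT19, KRT8 and others) summed to 17.7 to 47.6 TPM in testis and to 781 TPM or more elsewhere. In whole tissue, fewer cells of a type and less RNA per cell cannot be told apart.

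TFF3 (ENSSSCG00000022857), the goblet cell trefoil factor, was among the most abundant transcripts of the bulbourethral gland and near 0 in 3 of the other glands. In bulbourethral gland its levels were 14955, 9590 and 8552 TPM in the BMI libraries and 10132, 12973 and 8225 TPM in the DSE libraries, with a mean of 10738 ± 2667 TPM (SD, n = 6). It ranked between 3 and 9 among all genes in these libraries, and made up 0.823% to 1.50% of their TPM. In prostate gland it was 11.5, 0.547 and 0.868 TPM in BMI and 11.2, 0.430 and 14.9 TPM in DSE. Prostate libraries thus fell into 3 at 11 TPM or more and 3 below 1 TPM, with both breeds on each side. In epididymis, 3 of 6 libraries were above 0, with 1.16 TPM as the highest. It was listed at 0 in 5 of 6 vesicular gland libraries and 4 of 6 testis libraries, with at most 0.122 TPM in the others.

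Glands were compared with limma on log2(TPM + 1) in 1 fit of the 30 libraries, averaging the breeds, and a gene was called at a Benjamini-Hochberg adjusted p below 0.05 over all genes tested and a difference of at least 1 on the log2 scale. TFF3 was higher in bulbourethral than in prostate gland by 11.14 (SE 0.46, adjusted p = 1.77e-15), with no overlap between the 6 libraries of each. Against vesicular gland, epididymis and testis the difference was 13.34, 13.04 and 13.31, and since many libraries there were at 0 these sizes depend on the pseudocount. TFF3 was also called higher in prostate gland than in vesicular gland by 2.19 (adjusted p = 6.18e-04), epididymis by 1.90 (0.00159) and testis by 2.17 (1.71e-04). The call against epididymis was lost in a fit of the 12 libraries of these glands alone (adjusted p = 0.0628). Without BMI prostate gland replicate 2 TFF3 stayed called, 10.87 higher in bulbourethral than in prostate gland and 2.47, 2.17 and 2.44 higher in prostate gland than in vesicular gland, epididymis and testis. Vesicular gland, epididymis and testis did not differ in TFF3 beyond their spread (adjusted p of 0.606 to 0.969).

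**Figure D1:**
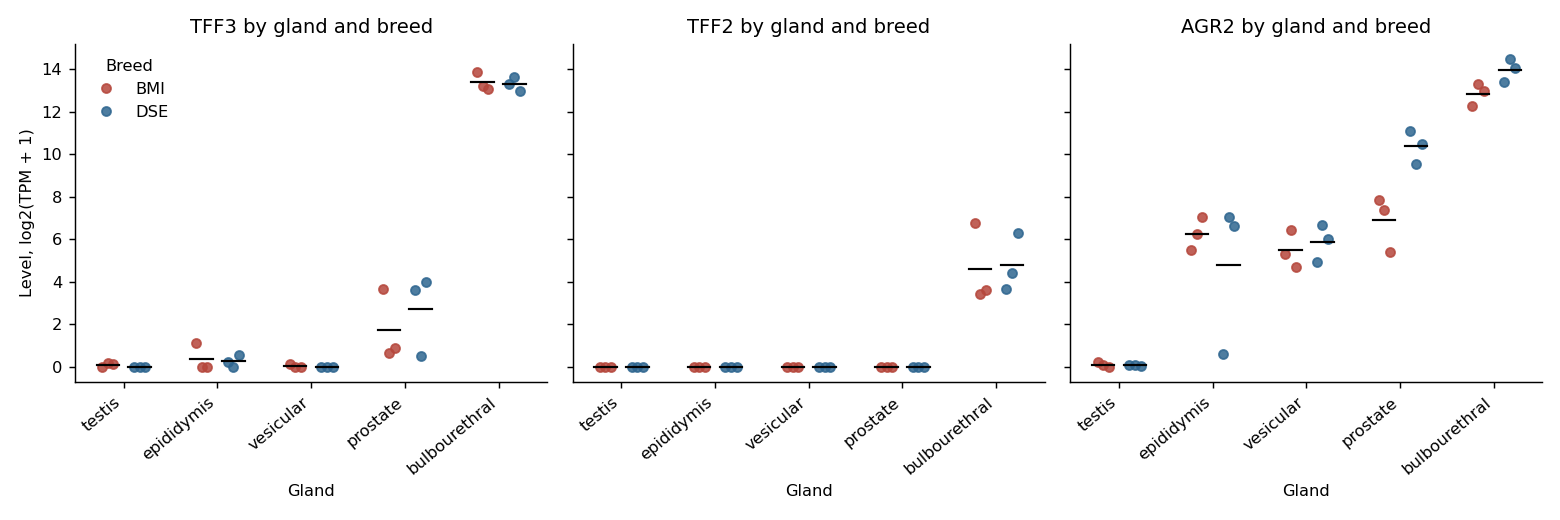
Levels of TFF3, TFF2 and AGR2 on the log2(TPM + 1) scale (vertical axis) in each RNA-seq library by gland (horizontal axis) and breed (red BMI, blue DSE). Points are libraries and bars the mean of 3 libraries on this scale; all 3 genes peak in bulbourethral gland, where TFF3 lies between 8225 and 14955 TPM, and AGR2 alone has intermediate levels in epididymis, vesicular gland and prostate gland.

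TFF2 (ENSSSCG00000024320), the trefoil factor with 2 trefoil domains that gastric gland cells secrete, was listed above 0 in the 6 bulbourethral gland libraries only. Its levels there were 108, 9.80 and 11.1 TPM in BMI and 11.7, 20.4 and 77.0 TPM in DSE, a mean of 39.7 ± 42.3 TPM (SD, n = 6). The highest and lowest libraries differed by 11.0-fold, against 1.82-fold for TFF3 in the same libraries. The level of TFF3 was 107 to 978 times that of TFF2. TFF2 entered the tests only through the bulbourethral gland libraries, so its difference from the other glands was fixed by the filter on low values and is given as a description with no test. No fold is given, because TFF2 is listed at 0 in the other 24 libraries.

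The TFF2 levels were highest in the bulbourethral libraries that also held striated muscle transcripts. Several other marker lists were summed in these libraries and are not set against TFF2 here. The 5 striated muscle markers (ACTA1, CKM, TNNT3, MYH2 and MYH7) summed to 355 TPM in BMI replicate 1 and 1229 TPM in DSE replicate 3, which had the highest TFF2 levels, and to 20.7 TPM in DSE replicate 2, which came next. The other 3 libraries held 0.0146 to 1.97 TPM of these markers and 9.80 to 11.7 TPM of TFF2. The part of the muscle transcripts in the TFF2 level was not tested. Without the 2 libraries with the highest TFF2, a choice made after seeing the data, its mean was 13.3 ± 4.81 TPM (n = 4).

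**Figure D2:**
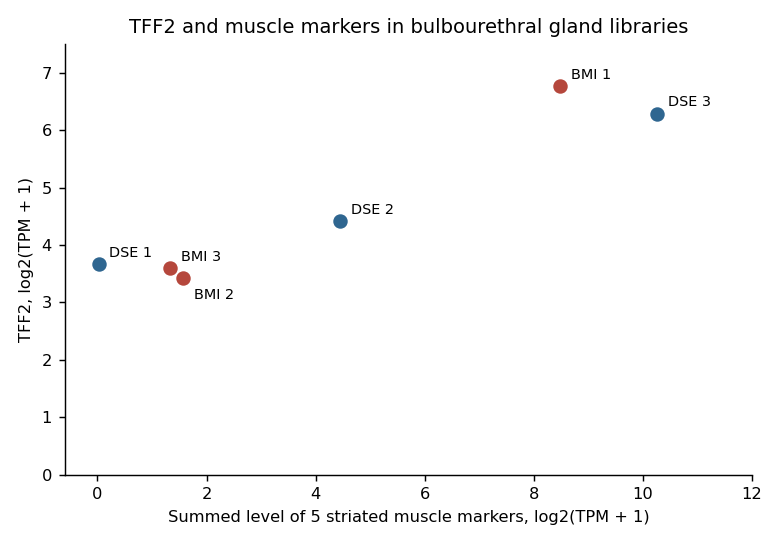
TFF2 (vertical axis) against the summed level of 5 striated muscle markers (horizontal axis), both as log2(TPM + 1), in the 6 bulbourethral gland libraries (red BMI, blue DSE, labelled by breed and replicate). The libraries with 355 and 1229 TPM of muscle markers are those with 108 and 77.0 TPM of TFF2.

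AGR2, the mucous cell disulfide isomerase, was expressed in every gland but testis, and unlike the trefoil factors it was well above 10 TPM in glands other than the bulbourethral gland. In bulbourethral gland it was 4892, 10287 and 8161 TPM in BMI and 11015, 22734 and 17295 TPM in DSE, and it ranked between 2 and 10 among all genes. In prostate gland it was 231, 168 and 41.8 TPM in BMI and 2184, 740 and 1445 TPM in DSE. In both glands the 3 DSE libraries lay above the 3 BMI libraries, but the difference between breeds was called in neither.

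In vesicular gland AGR2 was 38.7, 84.6 and 25.2 TPM in BMI and 29.3, 103 and 64.3 TPM in DSE. In epididymis it was 43.8, 75.7 and 130 TPM in BMI and 0.534, 133 and 99.1 TPM in DSE, so that 1 library stood far below the other 5. In testis no library exceeded 0.171 TPM. The order of the glands was thus bulbourethral, prostate, then epididymis and vesicular gland together, then testis.

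AGR2 was 4.79 higher on the log2 scale in bulbourethral than in prostate gland (SE 0.71, limma, adjusted p = 2.27e-05), and the gland means on the TPM scale differed by 15.5-fold. It was called higher in bulbourethral gland than in vesicular gland by 7.75, epididymis by 7.91 and testis by 13.34 on that scale. Prostate gland was in turn higher than vesicular gland by 2.95 (adjusted p = 0.0023), epididymis by 3.11 (adjusted p = 9.59e-04) and testis by 8.55 (adjusted p = 5.76e-11), although in the first 2 of these the libraries overlapped. Without BMI prostate gland replicate 2 AGR2 stayed called in these comparisons, with 4.92 between bulbourethral and prostate gland and 2.83, 2.99 and 8.42 for prostate gland over vesicular gland, epididymis and testis. Vesicular gland and epididymis did not differ beyond their spread (0.16, SE 0.71, adjusted p = 0.880). Both were higher than testis, by 5.60 and 5.43 (adjusted p = 1.11e-07 and 2.23e-07).

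TFF3 and AGR2 were thus called higher in bulbourethral gland in each of its 4 comparisons, and TFF2 is left out of this count because only its bulbourethral levels passed the filter. Of all genes tested, 5.64% were called higher in bulbourethral than in prostate gland, 23.6% than in vesicular gland, 6.33% than in epididymis and 15.8% than in testis. The shares called lower were 2.02%, 4.15%, 15.0% and 33.4% in the same order. With libraries rescaled by size factors, the shares called higher were 3.62%, 7.74%, 7.95% and 16% and those called lower 3.17%, 9.07%, 11.8% and 32.9%, and TFF3 and AGR2 were still called higher in each. In prostate gland TFF3 and AGR2 were also called higher than in vesicular gland, epididymis and testis, beside 11.4%, 3.68% and 12.4% of all genes. Between vesicular gland and epididymis neither TFF3 nor AGR2 was called, beside 36.5% of all genes called in either direction (limma, unadjusted p of 0.523 for TFF3 and 0.821 for AGR2). AGR2 alone was called higher in vesicular gland than in testis (8.04% of all genes) and in epididymis than in testis (21.6%). The median of all genes moved by up to 0.81 in size on the log2 scale between glands (-0.81 for vesicular gland minus testis), and by 0.11 for bulbourethral minus prostate gland.

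Some markers of epithelium and of other cell types moved with the same comparisons. The 6 epithelial markers summed to 2530 to 3000 TPM in bulbourethral gland, above every library of prostate gland (1374 to 2489 TPM), vesicular gland (781 to 1474 TPM) and epididymis (1014 to 1855 TPM). Of these 6, limma called 0 higher in bulbourethral than in prostate gland (3 at an unadjusted p below 0.05), 3 than in vesicular gland, 3 than in epididymis and 6 than in testis. With size factors 0, 2, 4 and 6 were called higher in the same order, and 1 was called lower than in vesicular gland. The 4 smooth muscle markers (DES, MYH11, ACTG2 and CNN1) were all called lower in bulbourethral gland, where they summed to 23.7 to 260.1 TPM, than in prostate gland (92.3 to 2152 TPM), vesicular gland (263 to 2614 TPM) and epididymis (816 to 13343 TPM). Leukocyte markers (LYZ, CD14, PTPRC and 1 more) summed to 166 to 328 TPM in bulbourethral gland and to at most 45.5 TPM elsewhere, and of the 4 only LYZ was called higher than in prostate gland. LYZ alone averaged 267 TPM of a mean sum of 285 TPM in bulbourethral gland. CD14 averaged 9.06 TPM there and 7.12 TPM in epididymis, and PTPRC 7.34 and 8.49 TPM. Plasma cell markers summed to 21.8 to 289 TPM in bulbourethral gland and to at most 35.8 TPM elsewhere, and 2 of 3 (JCHAIN and MZB1) were called higher than in prostate gland. JCHAIN alone averaged 136 TPM of a mean sum of 143 TPM. MZB1 averaged 7.25 TPM in bulbourethral gland and 8.75 TPM in epididymis, and TNFRSF17 0.657 TPM in bulbourethral gland and 0.990 TPM in testis. The part of these cell types in the members' differences was not tested.

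Breeds were compared within each gland in a fit of its 6 libraries, as BMI minus DSE. In prostate gland the mean level of AGR2 was 147 ± 96.2 TPM in BMI and 1456 ± 722 TPM in DSE (SD, n = 3 each). The difference was -3.48 on the log2 scale (SE 0.79, limma, adjusted p = 0.0951), so it did not pass the threshold. Only 0.0858% of all genes passed it in prostate gland, where the median of all genes was -0.23. The libraries of the breeds did not overlap, but how many of all genes separate in this way was not counted. Of the 19822 genes, 5182 had an unadjusted p below 0.05 in this comparison (limma). Leaving out any 1 library gave differences of -3.96 to -2.75 with adjusted p between 0.101 and 0.268. Without BMI replicate 2, the library with vesicular secretory transcripts, the difference was -3.74 (limma, adjusted p = 0.115).

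Marker sums of other cell types also varied between these prostate libraries, and for smooth muscle the breeds overlapped. Smooth muscle markers summed to 157, 1259 and 92.3 TPM in BMI and 1535, 862 and 2152 TPM in DSE. Leukocyte markers summed to 6.81 to 8.83 TPM in BMI and 23.2 to 31.8 TPM in DSE, and the epithelial markers to 1374 TPM or more in every prostate library. Their part in the AGR2 difference was not tested.

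In bulbourethral gland AGR2 was 7780 ± 2718 TPM in BMI and 17014 ± 5864 TPM in DSE, again without overlap, and the difference of -1.13 (SE 0.63) had an adjusted p of 0.924 (limma). There 0.0252% of all genes were called, and the share of genes without overlap between breeds was not counted. The ratio of AGR2 to TFF3 in a library was 0.327, 1.07 and 0.954 in BMI and 1.09, 1.75 and 2.10 in DSE, with the highest BMI value just below the lowest DSE value. TFF3 differed by 0.06 (SE 0.55) and TFF2 by -0.19 (SE 1.19), each with an adjusted p of 1, and both signs turned when single libraries were left out.

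In the other glands neither TFF3 nor AGR2 was called between breeds, and TFF2 was listed at 0. The AGR2 difference was 1.48 in epididymis (SE 1.84, limma, adjusted p = 1; 0.0% of all genes called, 487 genes at an unadjusted p below 0.05), and -0.60 without DSE epididymis replicate 1. It was -0.40 in vesicular gland (SE 0.64, limma, adjusted p = 0.738; 0.0101% called) and 0.04 in testis (SE 0.06, limma, adjusted p = 0.796; 0.197% called). TFF3 in prostate gland differed by -0.98 (SE 1.32, limma, adjusted p = 0.692), and by -0.43 without BMI replicate 2 (adjusted p = 0.931). An exact permutation test of 3 against 3 libraries cannot go below 0.10, so none was run.

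Whether the difference between breeds itself differed between glands was tested with the 4 interaction terms of the fit of 30 libraries. For AGR2 the limma F was 3.31 (adjusted p = 0.277), and for TFF3 the adjusted p was 0.840. TFF2 was listed above 0 in bulbourethral gland only, so no interaction is given for it. Of all genes 2.95% were called. Without DSE epididymis replicate 1, the library at 0.534 TPM, AGR2 passed with an adjusted p of 0.0413, and without BMI prostate gland replicate 2 it had 0.299. The epididymis library also had the lowest sum of epithelial markers in its gland, 1014 TPM against 1167 TPM or more in the other 5. In the quality measures given with the paper it had the lowest transcript integrity and the most unmapped reads of the RNA-seq libraries. The part of these in the AGR2 level was not tested.

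**Figure D3:**
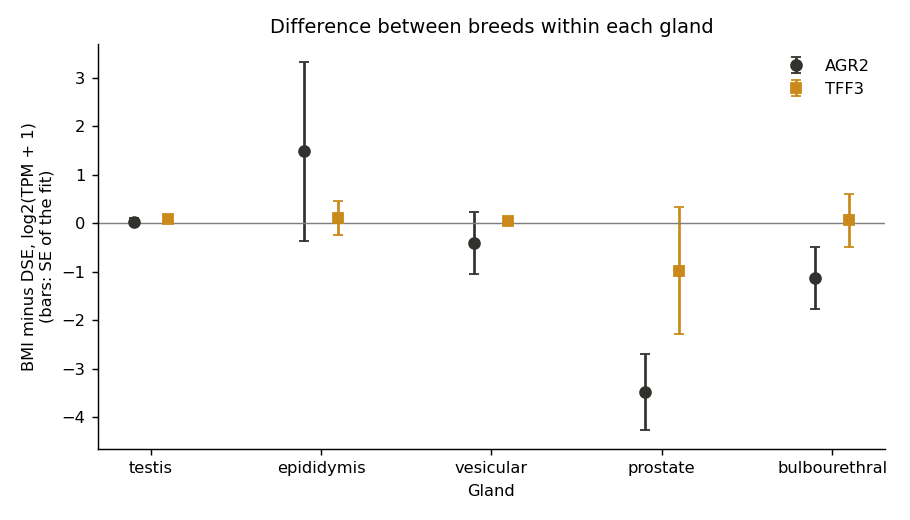
Difference between breeds, BMI minus DSE on the log2(TPM + 1) scale (vertical axis), for AGR2 (black circles) and TFF3 (yellow squares) in each gland (horizontal axis); bars are the SE of the limma fit of 6 libraries. AGR2 lies at -3.48 in prostate gland and -1.13 in bulbourethral gland, and its SE is widest, 1.84, in epididymis.

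Iso-seq gave the whole transcripts of TFF3 and AGR2. With 1 library per breed and gland there is no replicate check, and the 95% exact Poisson intervals cover counting error only. AGR2 had 751 RPM (interval 668 to 843) in BMI and 1149 (1024 to 1286) in DSE bulbourethral gland, and 22.8 (8.36 to 49.6) in BMI and 158 (118 to 206) in DSE prostate gland. It had 1 to 3 reads in DSE epididymis and both vesicular gland libraries, and 0 reads in BMI epididymis and both testis libraries. The DSE library was above the BMI library in bulbourethral and prostate gland.

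TFF3 had 165 RPM (127 to 210) in BMI and 339 (273 to 417) in DSE bulbourethral gland and 0 reads in the other 8 libraries. So in bulbourethral gland both genes were higher in the DSE Iso-seq library, TFF3 by more than AGR2, whereas in RNA-seq the TFF3 difference between breeds was 0.06. TFF2, at 39.7 TPM in RNA-seq, had 0 reads in all 10. The ratio of TFF3 to AGR2 was therefore lower in the long reads than in TPM. AGR2 had 4.56 times the reads of TFF3 in BMI and 3.39 times in DSE bulbourethral gland, so the breeds stood in the opposite order to the RNA-seq ratios, with 1 library each. Full-length reads under 1000 bases made up 0.335% to 2.84% of each library (0.639% in BMI and 0.361% in DSE bulbourethral gland), and the TFF3 and TFF2 transcripts are 784 and 797 bases long. The part of transcript length in these counts was not tested.

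Of the TFF3 reads, 152 (64 BMI, 88 DSE) belonged to PB.5632.1, a full splice match of the Ensembl transcript ENSSSCT00000025513 with 3 exons and a predicted open reading frame of 112 residues. A further 2 reads, both in DSE, belonged to PB.5632.2, which retains an intron. In RNA-seq, ENSSSCT00000025513 took 99.7% ± 0.11 of the TFF3 TPM in bulbourethral gland (SD, n = 6).

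AGR2 had 661 reads in 10 isoforms, and 2 of these isoforms held nearly all reads. PB.20080.1, a full splice match of ENSSSCT00000101222 with 3055 bases, had 386 reads, and PB.20080.2, a combination of known splice sites with 3070 bases, had 247, which left 28 reads in 8 isoforms. PB.20080.1 ended 1532 bases beyond the annotated end of ENSSSCT00000101222. In both the last exon spans chr9:86039837-86042363, a polyA motif (AATAAA) lies 15 bases before the end, and the predicted open reading frame has 175 residues.

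The 2 main isoforms differ in the splice donor of exon 1. The donors lie 18 bases apart, and the 30 bases around them (minus strand, chr9:86053787-86053816) are shown because this choice separates the isoforms. The capitals mark the 18 bases that PB.20080.2 keeps in its exon 1 and PB.20080.1 splices out, after 4 exon bases common to both and before 8 bases of intron.
AGR2 exon 1 donors: acagGTGGGTGGGGAAACTCAGgtaaggct
PB.20080.1 took 57.2% of the AGR2 reads in BMI bulbourethral gland (Wilson 95% interval 51.5% to 62.7%, 292 reads), 58.4% in DSE bulbourethral gland (52.8% to 63.8%, 305 reads) and 67.9% in DSE prostate gland (54.5% to 78.9%, 53 reads). PB.20080.2 took 41.4% (35.9% to 47.2%), 33.8% (28.7% to 39.3%) and 32.1% (21.1% to 45.5%) of the same reads. The intervals of the breeds overlap for both isoforms.

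The short reads divided AGR2 differently. In bulbourethral gland 64.3% ± 3.5 of its TPM (SD, n = 6) went to ENSSSCT00000088694, a transcript of 595 bases whose last exon (chr9:86042769-86042815) has 47 bases, and 35.0% ± 3.6 to ENSSSCT00000101222. PB.20080.2 received 0.467% ± 0.15. In prostate gland the shares were 62.1% ± 6.6, 36.5% ± 5.4 and 0.749% ± 0.58. None of the 661 full-length reads matched the splice chain of ENSSSCT00000088694, which allows a share of reads of up to 0.454%. That limit covers counting error only, and at 595 bases this transcript is in the length class that made up few of the full-length reads, so it does not bound the transcript's share in the tissue. The donor of exon 1 in ENSSSCT00000088694 is that of PB.20080.2. Transcripts of 1 gene share reads, so the division between them is less certain than the gene's sum.

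**Figure D4:**
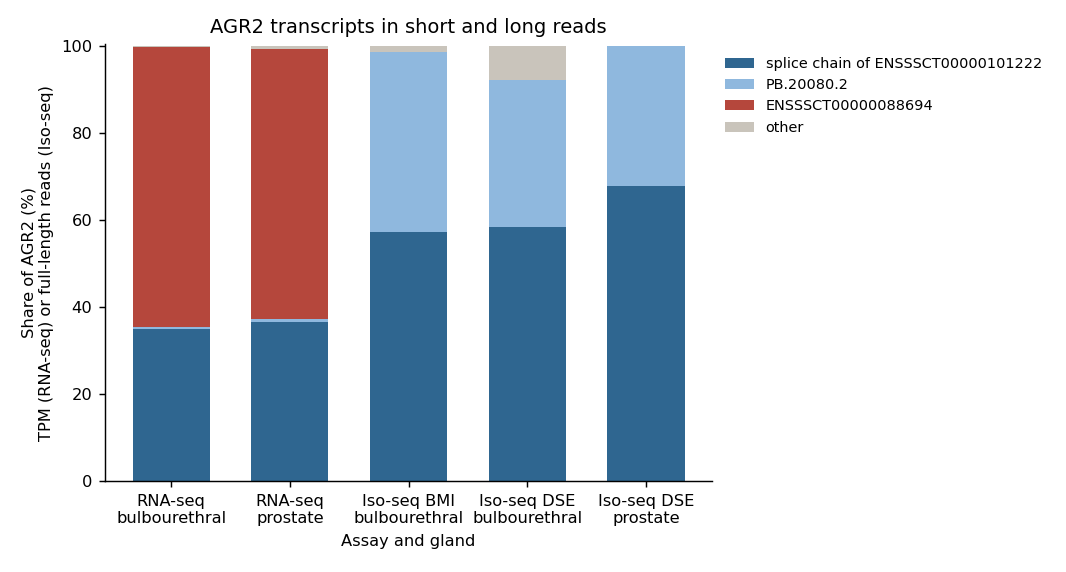
Share of AGR2 in percent (vertical axis) by transcript, as TPM in RNA-seq (mean of 6 libraries per gland) and as full-length reads in 3 Iso-seq libraries (horizontal axis). ENSSSCT00000088694 takes 64.3% of TPM in bulbourethral gland and 0 Iso-seq reads, while PB.20080.2 takes 0.467% of TPM and 41.4% or 33.8% of Iso-seq reads there.

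The genes whose pattern over the 30 libraries was most like each member were ranked by the root mean square difference of centred log2(TPM + 1), a description with no test. For TFF3 these were MUC5B (1.21), a gel-forming mucin, LMAN1L (1.31), a relative of an endoplasmic reticulum cargo receptor, CRISP3 (2.19), a secreted cysteine-rich protein, CLCA1 (2.37), a secreted goblet cell protein, and ATP2C2 (2.64), a calcium and manganese pump of the secretory pathway. In bulbourethral gland MUC5B was at 12300 ± 5530 TPM, LMAN1L at 1270 ± 399, CRISP3 at 792 ± 95.6, CLCA1 at 500 ± 411 and ATP2C2 at 272 ± 41.5 TPM. In prostate gland MUC5B was at 17.7 ± 6.50 TPM and CLCA1 at no more than 0.207 TPM.

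For TFF2 the most alike were SMIM33 (0.573), BFSP1 (0.711), a lens filament protein, CCL28 (0.731), a mucosal chemokine, SSTR2 (0.757), a somatostatin receptor, and CLDN22 (0.758), a tight junction protein. Their bulbourethral gland means lay between 23.2 and 47.0 TPM. For AGR2 they were THBS1 (1.90), which encodes thrombospondin, KRT18 (2.52), an epithelial keratin, PRR15L (2.57), ST6GALNAC1 (2.57), which adds sialic acid to mucin-type glycans, and GJB2 (2.61), a gap junction protein. THBS1 was at 1058 ± 166 TPM in bulbourethral and 87.1 ± 58.1 TPM in prostate gland. The measure weighs the size of a change as well as its shape, and the members changed by different amounts (root mean square of the centred values 5.20 for TFF3, 4.59 for AGR2 and 1.97 for TFF2), so their distances of 3.14 to 3.51 from each other do not compare shape alone.

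**Figure D5:**
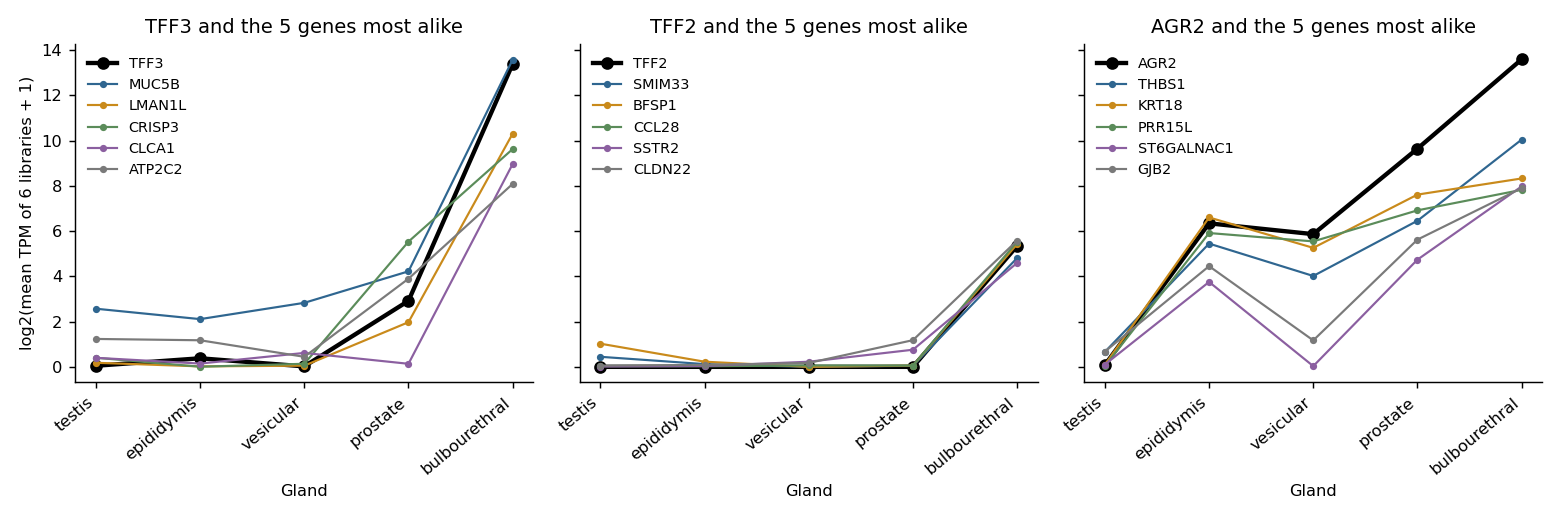
Mean level by gland (horizontal axis), as log2 of the mean TPM of 6 libraries plus 1 (vertical axis), of TFF3, TFF2 and AGR2 (thick black) and of the 5 genes most like each (coloured). MUC5B follows TFF3 to the same level in bulbourethral gland (12300 against 10738 TPM), while each gene near AGR2 stays below it there.

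Of the genes within 100 kb, TSPAN13, a tetraspanin 6442 bases from AGR2, was also highest in bulbourethral gland, at 497 ± 99.4 TPM, and next in prostate gland, at 130 ± 50.3 TPM. Unlike AGR2 it was lowest on average in vesicular gland (12.9 ± 3.93 TPM) and was at 36.3 ± 15.2 TPM in testis. It was called higher in bulbourethral than in prostate gland by 2.01 (SE 0.35, limma, adjusted p = 1.79e-04), and by 1.89 without BMI prostate gland replicate 2. Next to the trefoil genes, ABCG1, a sterol transporter 12613 bases from TFF3, was at 12.7 ± 6.63 TPM in bulbourethral gland and 3.25 TPM or less on average elsewhere, and was called higher there than in each other gland. BZW2, 92418 bases from AGR2, was called higher in bulbourethral gland than in prostate gland by 1.58, vesicular gland by 1.82 and testis by 1.31, while its 0.69 over epididymis stayed below the size limit. The calls of ABCG1 and BZW2 against prostate gland held without that library (1.75 and 1.58). TMPRSS3 and UBASH3A, beyond TFF1, were too low to be tested.

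Few of the mucins and proteins known to accompany trefoil factors could be tested. Of 11 listed genes, 8 had a value and 4 were tested. MUC19, FCGBP and ZG16 had no match in the annotation, so they were not measured. MUC5B was higher in bulbourethral than in prostate gland by 9.30 (SE 0.35, limma, adjusted p = 3.21e-16), and by 9.10 without BMI prostate gland replicate 2. CLCA1 and MUC5AC passed the filter on low values only through bulbourethral gland, where they are high, and GKN1 only through testis, so no count or median is given for this list. CLCA1 was at no more than 0.985 TPM and MUC5AC at no more than 0.404 TPM in any library of the other glands, and MUC5AC, picked out here after its values were seen, had a mean of 0.341 TPM over the 30 libraries. MUC2, the intestinal mucin, MUC6 and DMBT1 were below the test limit. GKN1, a gastric mucosa protein, was listed at 0 outside testis, where it averaged 5.04 TPM.

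Of 6 proposed trefoil receptors tested, 0 were called by limma between bulbourethral and prostate gland, with and without BMI prostate gland replicate 2, beside 5.64% of all genes called higher and 2.02% lower, and 3 had an unadjusted p below 0.05. CXCR4, EGFR and F2RL1 were called higher in bulbourethral than in vesicular gland (3 of 6, beside 23.6% of all genes) and LYPD3 lower (1 of 6, beside 4.15%). EGFR and F2RL1 were called higher than in testis (2 of 6, beside 15.8%), and ACKR3 and CXCR4 lower than in epididymis (2 of 6, beside 15.0%). EGFR was at 35.7 ± 10.9 TPM in bulbourethral and 57.6 ± 17.3 TPM in prostate gland, DAG1 (dystroglycan) at 39.0 ± 10.6 and 25.2 ± 5.12 TPM, and the chemokine receptor ACKR3 at 8.02 ± 2.53 and 18.0 ± 6.69 TPM. With size factors 1 receptor was called lower in bulbourethral than in prostate gland, beside 3.17% of all genes, and 1 was called higher than in vesicular gland, beside 7.74%.

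The protein disulfide isomerases, the family of AGR2, summed to 1262 TPM or more in every library, although PDILT, at 120 TPM on average in testis, was listed at 0 in bulbourethral gland and ERP27 at 0 in testis. Of 16 tested, 5 were called higher in bulbourethral than in prostate gland and 0 lower, beside 5.64% and 2.02% of all genes, and 10 higher than in vesicular gland, beside 23.6%. With size factors the counts of higher calls were 3 and 2, beside 3.62% and 7.74%, and without BMI prostate gland replicate 2 the count against prostate gland was 5. PDIA4 was at 382 ± 207 and 181 ± 90.0 TPM in bulbourethral and prostate gland, a difference of 1.01 (SE 0.29, limma, adjusted p = 0.0155), or 1.06 without that library. P4HB, the most abundant of the list, was at 850 ± 216 and 720 ± 109 TPM and was not called, nor was PDIA3. Against epididymis 1 was called higher, a share near the 6.33% of all genes (2 with size factors, beside 7.95%), and against testis 4 were called higher and 3 lower, beside 15.8% and 33.4%. PDILT, tested although listed at 0 in bulbourethral gland, could only be called lower there, so the count of lower calls is a description. In bulbourethral gland the level of P4HB was 525 to 1167 TPM, and that of AGR2 was 4892 TPM or more.

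Of 8 endoplasmic reticulum stress genes, 3 were called higher in bulbourethral than in prostate gland (HSPA5, EIF2AK3 and ERN2) and 1 lower (ERN1), beside 5.64% and 2.02% of all genes. With size factors 2 were called higher and 1 lower, beside 3.62% and 3.17%. Against vesicular gland 5 were called higher and 1 lower (2 and 1 with size factors), beside 23.6% and 4.15%, and against testis 3 higher and 0 lower, beside 15.8% and 33.4%. Against epididymis EIF2AK3 and ERN2 were called higher and CANX lower (2 and 1 of 8, beside 6.33% and 15.0%), but the summed level of the list was higher in epididymis, 2924 against 2076 TPM on average. With size factors 2 were called higher and 0 lower than in epididymis, beside 7.95% and 11.8%. HSPA5, the chaperone BiP, was at 561 ± 324 TPM in bulbourethral, 241 ± 123 TPM in prostate gland and 714 ± 421 TPM in epididymis. ERN2, the stress sensor of mucous epithelia, picked out here after its values were seen, was at 124 ± 28.3 TPM in bulbourethral gland and 11.0 ± 17.2 TPM in prostate gland, a difference of 4.44 (SE 0.30, limma, adjusted p = 3.46e-11), or 4.18 without BMI prostate gland replicate 2. CALR and HSP90B1, the other abundant chaperones of the list, were not called, but HSP90B1 was called higher without that library, which made 4.

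Of 12 secretory transcription factors tested, 3 were called higher in bulbourethral than in prostate gland (SPDEF, CREB3L1 and FOXA1), 8 than in vesicular gland, 8 than in epididymis and 9 than in testis, while 2 were called lower than in testis (GATA6 and KLF4). Of all genes 5.64%, 23.6%, 6.33% and 15.8% were called higher in these comparisons and 33.4% lower than in testis. With size factors the counts of higher calls were 3, 7, 8 and 9, beside 3.62%, 7.74%, 7.95% and 16%. Without BMI prostate gland replicate 2 the count against prostate gland was again 3, with KLF4 in place of SPDEF. SPDEF, a goblet cell factor, was at 651 ± 127 TPM in bulbourethral and 299 ± 127 TPM in prostate gland, and CREB3L1 at 587 ± 129 and 92.4 ± 17.3 TPM. XBP1 was at 718 ± 126 and 376 ± 63.1 TPM, a difference of 0.93 that stayed below the size limit. FOXA2, named after its values were seen, was at 43.6 ± 11.2 and 22.9 ± 5.45 TPM in these glands and at no more than 0.0462 TPM in any library of the other 3. It passed the filter on low values only through bulbourethral and prostate gland. Its calls against the other 3 glands, which the counts of higher calls above include, were therefore fixed by the filter.

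Between breeds 0 isomerases, stress genes, transcription factors or receptors were called by limma in any gland, beside at most 0.197% of all genes. In prostate gland, where AGR2 differed most, 10 of 16 isomerases, 7 of 8 stress genes, 2 of 12 transcription factors and 2 of 6 receptors had an unadjusted p below 0.05, as did 5182 of the 19822 genes. The list medians (BMI minus DSE) were -0.63 for the isomerases, -0.86 for the stress genes, -0.51 for the transcription factors and -0.08 for the receptors, against -0.23 for all genes. The stress gene ERN2 ran against its list's median, at 45.1, 6.95 and 10.9 TPM in BMI and 0.794, 1.33 and 0.671 TPM in DSE prostate gland. Without BMI replicate 2 the medians were -0.75, -0.85, -0.22 and -0.10, against -0.20. With size factors they were -0.21, -0.41, -0.10 and 0.29, against 0 for all genes. In the breed-by-gland test 1 isomerase (TXNDC12) and 1 stress gene (ERN2, limma adjusted p = 0.00596) were called, 1 of 16 and 1 of 8 beside 2.95% of all genes.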

How the data were processed

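The authors aligned RNA-seq reads to the pig genome (susScr11) with STAR 2.7.10a and quantified transcripts with Salmon 1.9.0, and deposited TPM values per transcript and library. The annotation joins Ensembl transcripts with Iso-seq isoforms. The paper describes poly-T selection and the labels rRNA depletion. For Iso-seq, the authors pooled full-length reads of all libraries, clustered and aligned them (GSNAP per the labels, GMAP per the paper) and deposited counts of full-length reads per isoform and library. The percentage of A bases after each 3′ end and the isoform classes were deposited as well, and were not used in a test. The miRNA table is not used here.

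TPM were summed by gene name. Genes reaching 1 TPM in 3 or more libraries were tested on log2(TPM + 1) with limma 3.58.1 in R 4.3.3 (trend, two-sided, Benjamini-Hochberg adjusted p over 19822 genes), which was tested on simulated data. A pseudocount of 1 understates changes of low genes. Boars are assumed to differ between libraries of a group; where they do not, p-values measure only the spread between libraries. Same-numbered libraries did not deviate together (correlations of -0.30 to 0.39 between glands of a breed), so no pairing was used. Iso-seq values are RPM (reads per 1000000 full-length reads) with exact Poisson intervals, shares have Wilson intervals, and a count of 0 allows up to 3 reads. Motifs and sequences were read from the RefSeq assembly of the same build.

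The members and all lists were chosen with earlier results of these data known. Named genes are the members, the 5 genes most alike to each, the 3 with the highest mean TPM of each list, and those within 100 kb. Other list genes, such as those named beside a count of calls, were named after their values were seen. Of 114 listed genes, 7 were matched by RefSeq position and 6 had no match. The prostate marker list is not reported here. Multiciliated markers were also checked, and their sums were at most 6.14 TPM on average outside testis.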

Additional observations from a re-analysis of the deposited data

Results flagged for a closer look

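On the log2(TPM + 1) scale, Dixon's test marked 2 of 11 groups of 6 libraries in which a member was above 0, and chance marks about 1 in 20 groups. AGR2 in DSE epididymis replicate 1 was 0.534 TPM, far below the other 5 epididymis libraries at 43.8 to 133 TPM (gap over range 0.754), but on the TPM scale the ratio was 0.326 and the library would not be marked. TFF3 in BMI vesicular gland replicate 1 was 0.0898 TPM, while it was listed at 0 in the other 5 libraries of that gland. With 5 values at 0 any sixth value above 0 is marked, so this mark carries no information.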

How the results depend on the processing

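The number of members called was recomputed in 297 settings and comparisons and stayed within 1.5 times the reported number in 295. It fell from 2 to 1 for prostate gland minus epididymis in a fit of the 12 libraries of these glands, and leaving out 1 library gave 0 to 1 members called in the breed-by-gland test. The rest of the calls held with a pseudocount of 0.1, no filter, size factors, no trend, Ensembl transcripts only, and the replicate block, which left 3 members called in each bulbourethral comparison (TFF2 among them, whose call there the filter fixes) and 0 between breeds. No transcript joined a member with another gene, so that alternative gave no value. Leaving out 1 library, the BMI minus DSE difference of AGR2 ranged from -0.025 to 0.088 in testis, -0.60 to 2.63 in epididymis and -0.88 to 0.0054 in vesicular gland, that of TFF2 in bulbourethral gland from -1.28 to 0.56 and that of TFF3 from -0.18 to 0.23, and AGR2 in vesicular gland minus epididymis from -0.88 to 0.74. Without the 2 bulbourethral libraries with high TFF2 (added after seeing the data) the TFF3 difference was -0.34. None of these was called.

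With splice matches only, AGR2 had 0.0 RPM of Iso-seq reads in DSE vesicular gland, 7.60 in BMI and 107.1 in DSE prostate gland, and 432 in BMI and 705 in DSE bulbourethral gland, since PB.20080.2 is then left out. By Iso-seq reads, ENSSSCT00000101222 took 57.8% of AGR2 in bulbourethral and 64.4% in prostate gland, PB.20080.2 37.5% and 35.6%, and ENSSSCT00000088694 0 and 0, and ENSSSCT00000025513 took 98.7% of TFF3. The cause was not tested.

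Calls over all genes moved more. Between breeds they ranged over settings from 0 to 950 in testis (39 as reported), 0 to 140 in epididymis (0), 0 to 97 in vesicular gland (2), 0 to 118 in prostate gland (17) and 0 to 59 in bulbourethral gland (5), the highest each time in one fit of 30 libraries, and from 196 to 1060 for the interaction (585). Size factors, from 0.385 to 1.65, cut the calls for vesicular gland minus epididymis from 7236 to 3017 and for bulbourethral minus vesicular gland from 5508 to 3292. They moved the share of calls that were higher in the first gland from 73.6% to 53.3% for bulbourethral minus prostate gland, 85.1% to 46.1% for bulbourethral minus vesicular gland, 29.6% to 40.2% for bulbourethral minus epididymis, 76.8% to 45.2% for prostate minus vesicular gland, 17.2% to 39.9% for prostate minus epididymis, 5.28% to 43.3% for vesicular minus epididymis and 15.2% to 33.9% for vesicular gland minus testis. With Ensembl transcripts only, fewer genes were tested and calls for pairs of glands fell to between 1022 and 6106 (1518 to 10496 as reported).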
